A study of Drosophila melanogaster with 9 samples.

Results

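*ImpE1*, *ImpE2*, *ImpE3*, *ImpL2* and *Stubble* (*Sb*) are ecdysone-inducible genes of *D. melanogaster* imaginal discs, and their RNA was followed in eye-antennal discs over larval life. The 5 genes were chosen by name and found by FlyBase identifier among the 13676 genes of the count table: *ImpE1* is FBgn0001253, *ImpE2* FBgn0001254, *ImpE3* FBgn0001255, *ImpL2* FBgn0001257 and *Sb* FBgn0003319. In the BDGP6 annotation *ImpE1*, *ImpE2* and *ImpL2* lie on chromosome arm 3L, and *ImpE3* and *Sb* on 3R. Each gene passed the filter on low counts in all comparisons, so all 5 are described throughout. Discs of untreated wild-type OregonR larvae were dissected at 72h after egg laying (AEL; late L2, males and females together), 96h AEL (mid L3, females only) and 120h AEL (late L3, females only). Each of the 3 libraries of a stage (replicates A, B and C) pooled 120 to 130 discs in late L2, 80 to 90 in mid L3 and 40 to 50 in late L3. Sex and stage therefore cannot be told apart in the comparisons with 72h AEL, and the 120h AEL libraries alone carry a label as a reanalysis, which cannot be told apart from the stage. As whole discs were sequenced in bulk, fewer cells of a type and less RNA per cell cannot be told apart either.

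The steroid 20-hydroxyecdysone times larval moults and metamorphosis through a receptor made of EcR and Usp, which switches on a first tier of transcription factors and, through them, effector genes of each tissue. Imaginal discs answer the hormone at the end of larval life by elongating and turning inside out, and the Imp genes were isolated as transcripts on membrane-bound polysomes that the hormone induces in discs, some early (ImpE) and some late (ImpL). *ImpE1* encodes a protein with low-density lipoprotein receptor repeats, and *ImpE2* and *ImpE3* encode extracellular proteins of the disc epithelium. *Sb* encodes a type II transmembrane serine protease needed for leg and wing eversion and for bristle shape, and *ImpL2* encodes a secreted immunoglobulin-domain protein that binds insulin-like peptides and restrains growth.

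Libraries held 17675472 to 37305763 counts, so the detection floor of 3 counts lay at 0.0738 to 0.148 CPM (counts per 1000000 reads, on library sizes scaled by TMM). The lowest count of any of the 5 genes was 39, for *Sb* in 72h AEL replicate C. Replicates A and B of 72h AEL differed by about the sampling noise (chi-square of 1.02 per gene, where noise alone gives about 1) and were counted as 1 sample. This left 2 late L2 samples beside 3 of mid L3 and 3 of late L3. All 11 disc marker genes (*ey*, *so*, *eya*, *Dll* and others) were above the floor in every library, with a summed level of 486 to 504 CPM in late L2, 1628 to 2060 CPM in mid L3 and 1544 to 1674 CPM in late L3. Markers of other tissues were present too. The 5 muscle genes measured summed to 12454 to 16821 CPM in late L2, 1747 to 6855 CPM in mid L3 and 190 to 584 CPM in late L3, and the 6 fat body genes to 3182 to 4387, 1799 to 6575 and 132 to 4691 CPM at these stages.

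For each of the 5 genes the late L3 libraries were the highest. *ImpE2* had the largest change, with a trough at mid L3 and a 138-fold higher level at 120h than at 96h AEL. *ImpE1*, *ImpE3* and *Sb* were low at both earlier stages, and *ImpL2* was already well expressed at late L2, dipped at mid L3 and was above that dip at late L3.

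**Figure D1:**
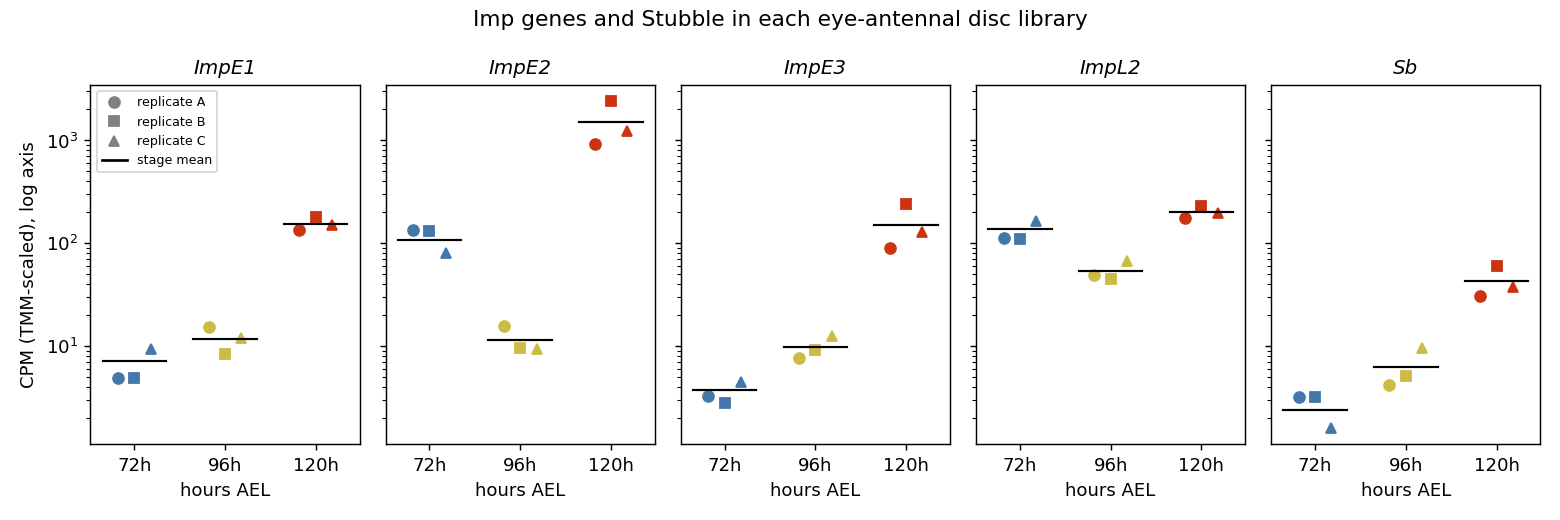
Level of each gene in every library, in CPM on a log axis, by hours AEL, with 1 point per library (shape marks the replicate) and a bar at the stage mean. *ImpE2* spans the widest range, with 2403 CPM in its highest library at 120h AEL and 9.31 CPM in its lowest at 96h AEL, while *ImpL2* stays between 44.7 and 231 CPM.

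*ImpE2*, the apical extracellular protein gene, had 134, 133 and 80.1 CPM in replicates A, B and C at 72h AEL, 15.9, 9.65 and 9.31 CPM at 96h AEL, and 926, 2403 and 1234 CPM at 120h AEL. No library of 1 stage reached into the range of another. The mean was 107 ± 38.0 CPM at 72h AEL (SD, n = 2), 11.6 ± 3.70 CPM at 96h AEL and 1521 ± 779 CPM at 120h AEL (SD, n = 3 each). Its trough at 96h AEL still rested on 233 to 646 counts per library.

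*ImpE1*, whose protein resembles lipoprotein receptors, had 4.90, 4.92 and 9.50 CPM at 72h AEL, 15.3, 8.45 and 12.0 CPM at 96h AEL, and 135, 181 and 152 CPM at 120h AEL. The late L3 libraries stood apart from all others, whereas 96h AEL replicate B lay under 72h AEL replicate C. Stage means were 7.20 ± 3.25 CPM at 72h AEL (SD, n = 2), 11.9 ± 3.41 CPM at 96h AEL and 156 ± 23.4 CPM at 120h AEL (SD, n = 3 each), the smallest relative spread of the 5 genes at late L3 after *ImpL2*.

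*ImpE3* had 3.29, 2.82 and 4.46 CPM at 72h AEL, 7.74, 9.18 and 12.6 CPM at 96h AEL, and 90.3, 239 and 128 CPM at 120h AEL. Its libraries were ordered by stage without overlap. The means were 3.76 ± 0.993 CPM at 72h AEL (SD, n = 2), 9.85 ± 2.51 CPM at 96h AEL and 152 ± 77.4 CPM at 120h AEL (SD, n = 3 each).

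*Sb*, the protease gene, had 3.25, 3.20 and 1.61 CPM at 72h AEL, 4.18, 5.11 and 9.63 CPM at 96h AEL, and 30.7, 60.0 and 37.3 CPM at 120h AEL. The stages again did not overlap, although the lowest library of 96h AEL and the highest of 72h AEL were less than 1 CPM apart. The means were 2.42 ± 1.14 CPM at 72h AEL (SD, n = 2), 6.31 ± 2.92 CPM at 96h AEL and 42.7 ± 15.4 CPM at 120h AEL (SD, n = 3 each).

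*ImpL2*, the insulin-binding protein gene, had 112, 111 and 166 CPM at 72h AEL, 48.9, 44.7 and 67.7 CPM at 96h AEL, and 178, 231 and 196 CPM at 120h AEL. It was lowest in the 3 mid L3 libraries, and its late L3 libraries were above those of late L2, the nearest pair being 178 CPM in 120h AEL replicate A and 166 CPM in 72h AEL replicate C. The means were 139 ± 38.5 CPM at 72h AEL (SD, n = 2), 53.8 ± 12.2 CPM at 96h AEL and 202 ± 27.1 CPM at 120h AEL (SD, n = 3 each).

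Mid L3 against late L2 is the transition across the moult. *ImpE2* and *ImpL2* fell and *ImpE3* rose, while *ImpE1* and *Sb* did not pass the test. *ImpE2* fell to 11.6 CPM at 96h AEL, against 107 CPM at 72h AEL, which was 9.55-fold lower (log2 fold change -3.26, SE 0.35, adjusted p = 0.00536 by the quasi-likelihood test of edgeR, Benjamini-Hochberg adjusted over 8845 genes). *ImpL2* was 2.66-fold lower at 96h AEL (log2 fold change -1.41, SE 0.28, edgeR adjusted p = 0.0196), and *ImpE3* was 2.55-fold higher (1.35, SE 0.38, edgeR adjusted p = 0.0417). Calls were common across this transition: 42.4% of all genes tested passed (19.4% higher and 23% lower), so 3 of 5 is near the background. Of these calls 45.7% were higher, and 71.4% with scaling by library size alone, which put the median of all genes at 0.44 on the log2 scale. Likewise samples of both stages did not overlap for 4 of the 5 genes, against 72.1% of all genes. The *ImpE2* call held with any 96h AEL library left out. *ImpE3* lost its call whichever of these was left out (adjusted p up to 0.108 by edgeR), and *ImpL2* without 96h AEL replicate A or B (up to 0.0807). Without 72h AEL replicate C, which leaves 1 late L2 sample, the log2 fold changes were -3.60 for *ImpE2*, 1.63 for *ImpE3* and -1.12 for *ImpL2*. Leaving out 72h AEL replicate A or B keeps its near copy, so it hardly tests a call.

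For *Sb* the log2 fold change was 1.33 (SE 0.60, edgeR adjusted p = 0.121), with all 3 mid L3 samples above both late L2 samples. For *ImpE1* it was 0.68 (SE 0.43, edgeR adjusted p = 0.233), and -0.29 once the trend of each library with coding length was taken out. *ImpE1* has the longest coding sequence of the 5 at 4851 bp, and the libraries differ in that trend. For each of 9124 genes, the log2 CPM of a library was taken relative to the gene's mean over all libraries. The rank correlation of this deviation with coding length was 0.03 to 0.57 in the 96h AEL libraries, against -0.48 to -0.35 in those of 72h AEL. Beside the falls of *ImpE2* and *ImpL2* stand those of the muscle markers given above and of 3 tracheal markers, which summed to 908 to 1105 CPM at 96h AEL, against 1430 to 1448 CPM at 72h AEL. That tracheal sum was nearly all *verm* (means of 693 CPM at 96h AEL and 875 CPM at 72h AEL) and *serp* (298 and 563 CPM). Of these *serp* passed the test (edgeR adjusted p = 0.0183) and *verm* did not (0.126), and *trh* was left out by the filter. The part of these markers in the result was not tested.

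**Figure D2:**
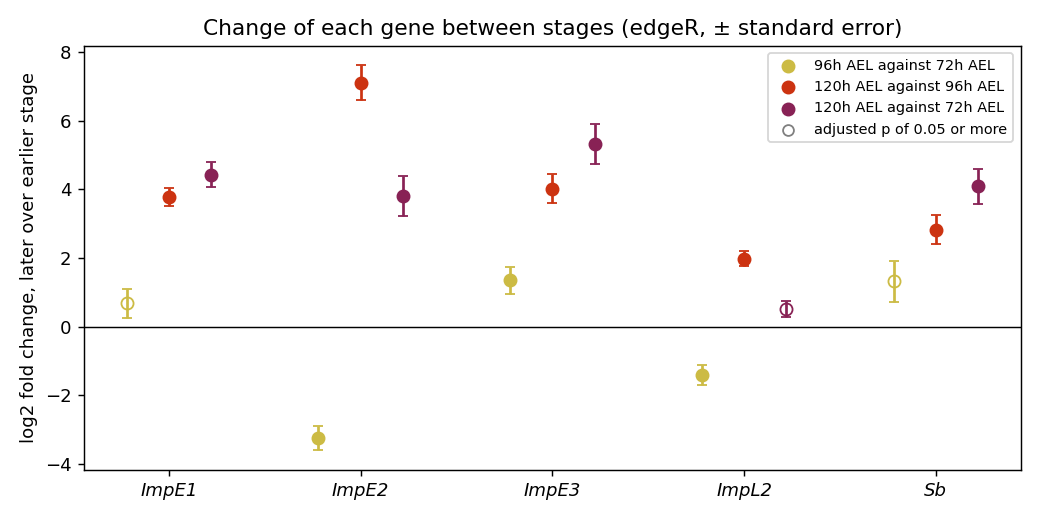
Log2 fold change (later over earlier stage) with its standard error from edgeR for each gene and pair of stages, with open points where the adjusted p is 0.05 or more. At 120h against 96h AEL all 5 points are positive and filled, between 1.98 for *ImpL2* and 7.11 for *ImpE2*, whereas at 96h against 72h AEL *ImpE2* (-3.26) and *ImpL2* (-1.41) lie under 0.

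Late L3 against mid L3 compares female discs only, and here each of the 5 genes rose. *ImpE2* reached 1521 CPM at 120h AEL, against 11.6 CPM at 96h AEL, 138-fold higher (log2 fold change 7.11, SE 0.51, edgeR adjusted p = 0.000839 over 8201 genes) and the 16th largest rise of all genes tested. *ImpE3* was 16.3-fold higher at 120h AEL (4.02, SE 0.43, edgeR adjusted p = 0.00243) and *ImpE1* 13.8-fold (3.78, SE 0.26, edgeR adjusted p = 0.000781), both among the 76 largest rises. *Sb* was 7.11-fold higher (2.83, SE 0.42, edgeR adjusted p = 0.00697). *ImpL2* had the smallest change of the 5, 3.93-fold (1.98, SE 0.21, edgeR adjusted p = 0.00248), at rank 328. Among all genes, 14.7% passed the test and 8.39% were called higher, against 5 of these 5. In none of the 5 did a 96h AEL sample reach the lowest 120h AEL sample, which held for 14.7% of all genes in that direction. All 5 calls held in every alternative and with any library left out.

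Salivary gland genes marked the same transition. The 6 glue genes *Sgs1*, *Sgs3*, *Sgs4*, *Sgs5*, *Sgs7* and *Sgs8*, which larval salivary glands express under ecdysone, summed to 225 to 278 CPM in the 120h AEL libraries, against 0.759 to 1.25 CPM at 96h AEL, where each but *Sgs1* was at or under the floor in some library. The 3 glial markers summed to 225 to 290 CPM at 120h AEL, against 161 to 220 CPM at 96h AEL. That glial sum was mostly *Gli* (means of 229 CPM at 120h AEL and 169 CPM at 96h AEL), which did not pass (edgeR adjusted p = 0.132). *repo* did not pass either (log2 fold change 0.15, SE 0.13, edgeR adjusted p = 0.476), whereas *moody* rose (0.98, SE 0.14, edgeR adjusted p = 0.00598). The 3 neuronal markers measured summed to 25.4 to 26.4 CPM at 120h AEL, against 5.51 to 9.07 CPM at 96h AEL. Of the 6 fat body genes, *Fbp1* rose to 776 CPM at 120h AEL, against 1.13 CPM at 96h AEL (9.51, SE 1.51, edgeR adjusted p = 0.00884). The other 5 did not pass. Hemocyte markers (6 genes) spanned 193 to 1120 CPM at 120h AEL and 71.4 to 345 CPM at 96h AEL. The part of these tissues in the rise of the 5 genes was not tested.

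Late L3 against late L2 sets the ends of the series side by side, and shares its samples with both comparisons above. *ImpE3* was 40.2-fold higher at 120h AEL (log2 fold change 5.33, SE 0.57, edgeR adjusted p = 0.00204 over 9125 genes), *ImpE1* 21.5-fold (4.43, SE 0.37, edgeR adjusted p = 0.000962) and *Sb* 17.0-fold (4.09, SE 0.51, edgeR adjusted p = 0.00308). *ImpE2* was 13.9-fold higher (3.80, SE 0.58, edgeR adjusted p = 0.00573), with mean levels of 1521 CPM at 120h AEL and 107 CPM at 72h AEL. The log2 fold change of *ImpL2* was 0.52 (SE 0.23, edgeR adjusted p = 0.107), with mean levels of 202 CPM at 120h AEL and 139 CPM at 72h AEL. Thus 4 of 5 passed, all higher, where 52.9% of all genes passed and 24% were called higher. Higher genes made up 45.3% of these calls, and 71% with scaling by library size alone, which put that median at 0.58. In all 5 the late L3 samples lay above the late L2 samples without overlap, as in 36.9% of all genes. *ImpL2* did pass with scaling by library size alone (1.07, edgeR adjusted p = 0.0251), with the length trend removed (0.71, 0.0444) and with replicates A and B of late L2 kept apart (0.62, 0.0295).

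On the scale of CPM per kb of coding sequence, which sets genes of unlike length side by side, the order of the 5 changed between stages. This scale does not take out the trend of each library with coding length. At 72h AEL *ImpL2* led with a mean level of 172 CPM per kb, followed by *ImpE2* at 76.3, *ImpE3* at 3.84, *ImpE1* at 1.48 and *Sb* at 1.02, the last pair overlapping between samples. At 96h AEL *ImpL2* still led at 66.9 CPM per kb. *ImpE3* at 10.1 and *ImpE2* at 8.29 followed and overlapped, as did *Sb* at 2.67 and *ImpE1* at 2.45. At 120h AEL *ImpE2* was first at 1086 CPM per kb and ranked 127th of all 13676 genes, against 6762nd at 96h AEL. *ImpL2* at 251 and *ImpE3* at 156 CPM per kb overlapped behind it, and *ImpE1* at 32.2 and *Sb* at 18.1 were last, the median of the genes past the filter being 22.3. The mean of *Sb* thus stayed under the median gene at each stage, although 120h AEL replicate B alone had 25.4 CPM per kb. *ImpL2* was above the median gene at each stage.

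**Figure D3:**
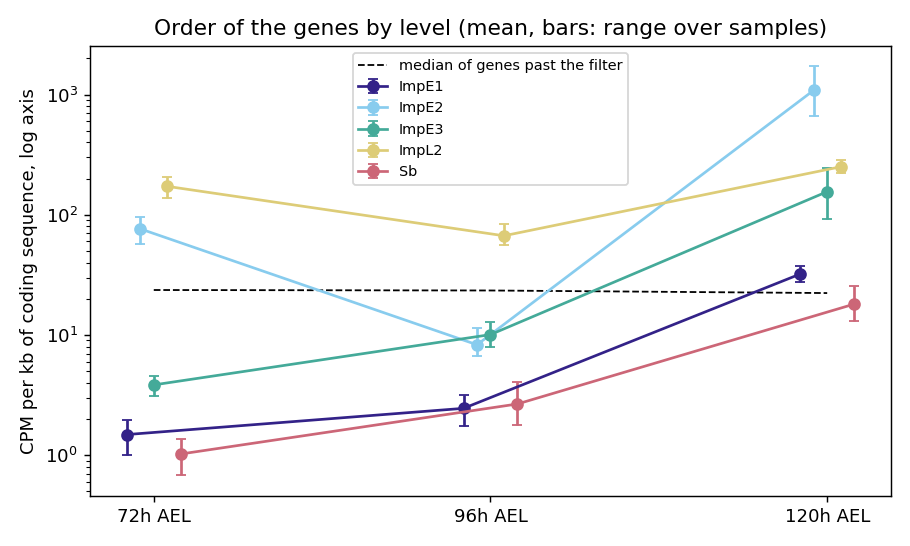
Mean level of each gene in CPM per kb of coding sequence on a log axis at the 3 stages, with bars for the range over samples and a dashed line for the median gene. *ImpE2* crosses the median line downwards before 96h AEL (8.29 CPM per kb, against a median of 23.4) and ends first at 120h AEL (1086 CPM per kb).

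The late L3 libraries differed among themselves in the same way for the 5 genes: replicate B was highest, C intermediate and A lowest in 5 of 5. This order occurred in 32.7% of the 9124 genes past the filter. Relative to the mean of the 3 libraries, replicate B stood at 1.58 for *ImpE2*, 1.57 for *ImpE3*, 1.41 for *Sb*, 1.16 for *ImpE1* and 1.15 for *ImpL2*. Replicate B also had the fewest counts of all libraries (17675472) and lay lowest in the markers of fat body, hemocytes, muscle, glia and salivary gland. Neuronal markers were nearly level (25.4 CPM in B, 26.4 in A and 25.8 in C). Replicate B was intermediate in tracheal markers, mostly *verm* and *serp* (719 CPM, against 665 in A and 808 in C), and in disc markers (1619 CPM, against 1544 in A and 1674 in C). Its 6 fat body genes summed to 132 CPM, against 4691 in A and 4257 in C. Its 6 hemocyte genes summed to 193 CPM, against 1120 in A and 996 in C, and its 5 muscle genes to 190 CPM, against 584 and 564. Glial markers, mostly *Gli* (225 CPM in B, 290 in A and 285 in C), and salivary gland markers (225, 278 and 231) varied less. The part of these tissues in the order of the libraries was not tested. Without replicate B the log2 fold changes of 120h against 96h AEL were 6.61 for *ImpE2*, 3.66 for *ImpE1*, 3.53 for *ImpE3*, 2.50 for *Sb* and 1.86 for *ImpL2*, and each still passed.

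**Figure D4:**
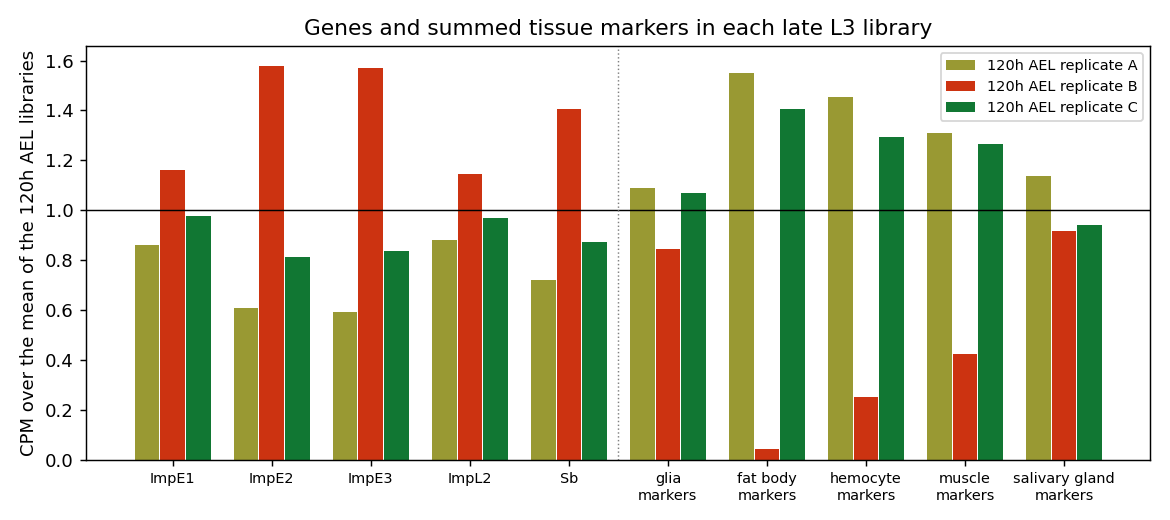
CPM of each gene and summed CPM of tissue markers in the 120h AEL libraries, divided by the mean of the 3 libraries (line at 1), with 1 bar per replicate. Replicate B has the tallest bar for each of the 5 genes, 1.58 for *ImpE2* at most, and the shortest for fat body (132 CPM), hemocyte (193 CPM) and muscle (190 CPM) markers.

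The other genes isolated as Imp transcripts, *ImpL1* and *Ldh*, fell at mid L3 and did not pass the test at late L3 against mid L3. *ImpL1* was lower at 96h AEL than at 72h AEL (log2 fold change -2.56, SE 0.45, edgeR adjusted p = 0.016). *Ldh*, the lactate dehydrogenase gene first described as *ImpL3*, fell to 128 CPM at 96h AEL, against 643 CPM at 72h AEL (-2.39, SE 0.51, edgeR adjusted p = 0.0231). Without 96h AEL replicate B these calls were lost (0.0604 for *ImpL1* and 0.0943 for *Ldh*). At 120h against 96h AEL *Ldh* averaged 50.8 CPM at 120h AEL and 128 CPM at 96h AEL (-1.24, SE 0.42, edgeR adjusted p = 0.106, and 0.00714 without 96h AEL replicate C). DESeq2 gave 0.0118. Against 72h AEL *Ldh* was lower at 120h AEL (-3.69, SE 0.23, edgeR adjusted p = 0.000449).

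The receptor and regulators of the hormone response were followed in a list of 20 genes, of which 19 were in the table (*br* was not analysed here) and 16 were tested at 120h against 96h AEL. Of these, 4 rose and 12 did not pass the test, where 8.39% of all genes rose, with a median log2 fold change of 0.35, against 0.01 over all genes. *Kr-h1*, a zinc finger regulator of metamorphosis, was at 111 CPM at 120h AEL, against 63.2 CPM at 96h AEL (log2 fold change 0.89, SE 0.14, edgeR adjusted p = 0.00879), and kept its call with any library left out. The nuclear receptor genes *Eip75B* (0.89, SE 0.18, edgeR adjusted p = 0.0214) and *Eip78C* (1.62, SE 0.31, 0.0177) rose as well, as did *Eip71CD* (1.32, SE 0.26, 0.0177), which encodes a methionine sulfoxide reductase. These 3 calls depended on single libraries: each was lost without 96h AEL replicate B (adjusted p of 0.107, 0.0772 and 0.0971 by edgeR), and those of *Eip75B* and *Eip71CD* also without 120h AEL replicate A or C. The list then held 1 riser without 96h AEL replicate B and 2 without 120h AEL replicate C. With the replicate letter as a block *Eip78C* missed the threshold (edgeR adjusted p = 0.0625). Among genes that did not pass, *Hr3* averaged 22.4 CPM at 120h AEL and 5.89 CPM at 96h AEL (2.00, SE 0.56, edgeR adjusted p = 0.0615), *Hr4* 47.5 and 16.8 CPM (1.58, SE 0.42, 0.0514), and the receptor gene *EcR* 54.4 and 104 CPM (-0.86, SE 0.34, 0.168). *tai* went the other way, with 101 CPM at 120h AEL and 232 CPM at 96h AEL (-1.12, SE 0.29, edgeR adjusted p = 0.0507). DESeq2 called both *Hr3* (0.00265) and *Hr4* (0.00204) higher and *tai* lower, which gave 6 risers and 1 faller in the list.

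At 96h against 72h AEL, 18 genes of the list were tested, of which 8 rose and 6 fell, where 19.4% of all genes rose and 23% fell, with a median log2 fold change of 0.53, against -0.04 over all genes. These counts depended on single libraries. Without 96h AEL replicate B 2 rose and 1 fell (*vri*, *Kr-h1* and *Cyp18a1*), and without 96h AEL replicate A 3 rose and 5 fell. *EcR* had 104 CPM at 96h AEL, against 16.6 CPM at 72h AEL (2.60, SE 0.39, edgeR adjusted p = 0.0114, and 0.0504 without 96h AEL replicate B). *vri*, a bZIP factor gene of the hormone hierarchy and the circadian clock, rose (2.93, SE 0.38, edgeR adjusted p = 0.00812). *Cyp18a1*, whose enzyme inactivates 20-hydroxyecdysone, fell to 2.54 CPM at 96h AEL, against 21.3 CPM at 72h AEL (-3.11, SE 0.26, edgeR adjusted p = 0.00281). The *vri* and *Cyp18a1* calls held with any 96h AEL library left out. Over the whole series (120h against 72h AEL, 18 tested) 7 rose and 3 fell, where 24% of all genes rose and 28.9% fell, with a median of 0.69. Without 120h AEL replicate C 4 rose and 2 fell.

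**Figure D5:**
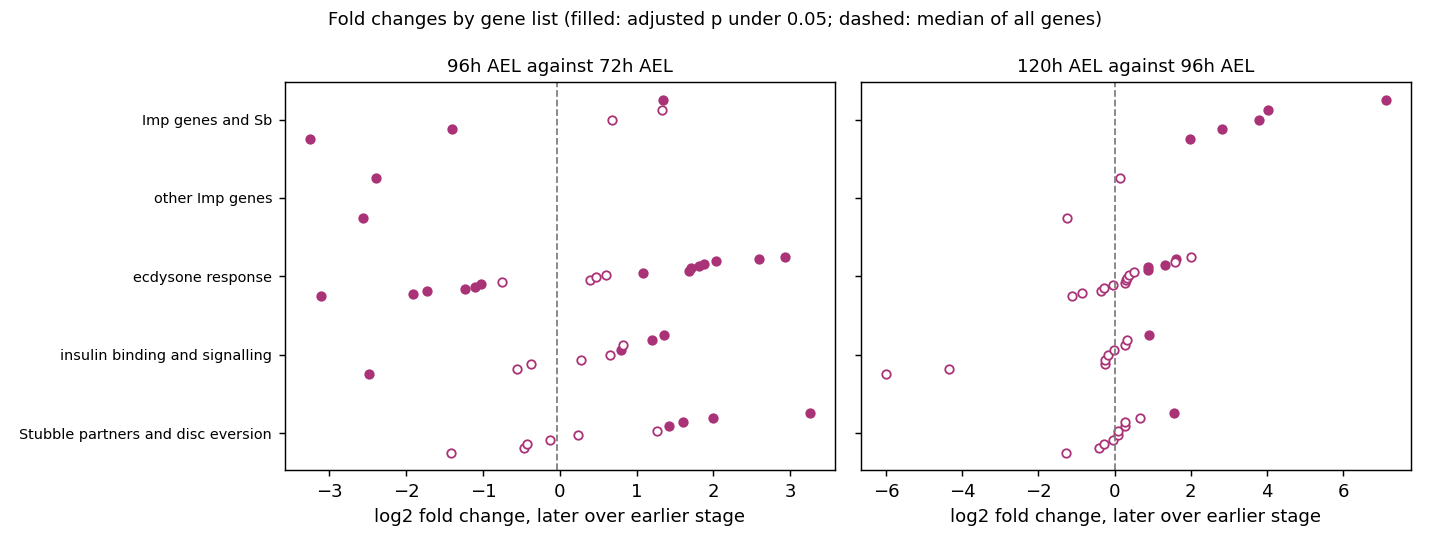
Log2 fold change (later over earlier stage) of each tested gene in the 5 genes and in 4 lists, for 96h against 72h AEL (left) and 120h against 96h AEL (right), with filled points for an adjusted p under 0.05 and a dashed line at the median of all genes. In the right panel the 5 genes (1.98 to 7.11) are all filled, against 4 of 16 in the ecdysone response list.

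Around *ImpL2*, a list of 12 genes covered insulin-like peptides, their binding proteins and the pathway inside the cell (*InR* was not analysed here). At 120h against 96h AEL 1 of 9 tested genes rose, near the 8.39% of all genes that rose, and 8 did not pass. The median log2 fold change of the list was -0.17. The riser was *Sdr*, which encodes another secreted binding protein for insulin-like peptides, with 30.6 CPM at 120h AEL, against 17.4 CPM at 96h AEL (0.89, SE 0.22, edgeR adjusted p = 0.0405). Its call was lost with the replicate block (edgeR adjusted p = 0.0549) and without any single library other than 120h AEL replicate B (up to 0.168). At 96h against 72h AEL, where *ImpL2* fell, 3 of 9 rose and 1 fell, beside 19.4% and 23% of all genes. Without 96h AEL replicate B the 3 risers lost their calls, without 96h AEL replicate A 1 rose and 1 fell, and without 96h AEL replicate C 4 rose and 2 fell. *Sdr* rose in that step too (1.36, SE 0.21, edgeR adjusted p = 0.0125, and 0.0648 without 96h AEL replicate B), and *Thor*, the translation repressor gene 4E-BP, fell to 38.9 CPM at 96h AEL, against 210 CPM at 72h AEL (-2.48, SE 0.31, edgeR adjusted p = 0.00786). At 120h against 72h AEL 2 of 7 rose (24% of all genes) and 5 did not pass. Without 120h AEL replicate B 3 of 11 rose and 4 fell.

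Around *Sb*, a list of 11 genes held the Rho1 to myosin pathway with which *Sb* interacts in leg discs, and matrix proteases of disc eversion (*zip* was not analysed here). The median log2 fold change at 120h against 96h AEL was 0.09. Of 10 genes tested, 9 did not pass and 1 rose, near the 8.39% of all genes that rose. It was *Notopleural* (*Np*), which like *Sb* encodes a transmembrane serine protease, with 60.1 CPM at 120h AEL, against 21.3 CPM at 96h AEL (1.57, SE 0.13, edgeR adjusted p = 0.00124), and the call held with any library left out. At 96h against 72h AEL 4 of 10 rose (19.4% of all genes) and 6 did not pass, and 1 rose without 96h AEL replicate B and 2 with the length trend removed. *Np* was at 21.3 CPM at 96h AEL, against 6.75 CPM at 72h AEL (1.60, SE 0.21, edgeR adjusted p = 0.00887), and *Mmp2*, a matrix metalloprotease gene, at 560 CPM, against 56.7 CPM (3.25, SE 0.27, edgeR adjusted p = 0.00298). *Np* missed the threshold without 96h AEL replicate B (0.052) and with the length trend removed (0.0627). At 120h against 72h AEL 6 did not pass and 4 rose (24% of all genes), and *Np* was among the risers (3.12, SE 0.16, edgeR adjusted p = 0.000303).

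The authors' clustering of 8836 genes by stage profile, made from these same libraries, put *ImpE1*, *ImpE2*, *ImpE3* and *Sb* into cluster 13 (316 genes, 3.58%) and *ImpL2* into cluster 5 (282 genes, 3.19%). Across the 8 independent samples, Pearson correlations of log2 CPM between the 5 genes were highest for *ImpE1* with *ImpE3* (0.98) and *ImpE3* with *Sb* (0.97), and *ImpE2* was nearest to *ImpL2* (0.92). The lowest was *ImpL2* with *Sb* (0.53). These values describe profiles that share their libraries and stages.

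Among the 9124 genes past the filter, the 3 with the profile most like each gene had correlations of 0.980 to 0.998 over the 8 samples. For *ImpE1* they were *side-VII* (0.995), *CG42240* (0.995) and *Schip1* (0.991). For *ImpE2* they were *CG6847* (0.982), *CG17224* (0.981) and *Fs* (0.980), the gene of follistatin, which averaged 8.43 CPM in late L2, 4.35 CPM in mid L3 and 22.6 CPM in late L3. *ImpE3* had *CG6765* (0.993), *Os-C* (0.992) and *SP555* (0.991), *ImpL2* had the cuticle protein gene *Cpr64Ac* (0.990), *CG11029* (0.987) and the lipocalin gene *NLaz* (0.986), and *Sb* had *CG13203* (0.998), *blanks* (0.997) and *CG17672* (0.995). *Cpr64Ac* averaged 1.03 CPM at 72h AEL, 0.0460 CPM at 96h AEL, which is under the detection floor, and 3.42 CPM at 120h AEL.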

How the data were processed

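RNA-seq of eye-antennal discs gave 9 libraries, 3 for each stage. The deposited raw counts were made by the authors, who aligned 50 bp single-end reads, untrimmed, to 1 coding sequence per FlyBase gene (the longest) with Bowtie2 and counted reads per gene with SAMtools 0.1.19, without regard to strand and without normalization. Reads from UTRs are therefore not in the counts, and genes with similar coding sequence may share reads. The cluster number of each gene was taken as deposited by the authors, who clustered the same libraries. All sample columns were used.

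Computations used R 4.3.3 with edgeR 4.0.16 and DESeq2 1.42.0. Libraries of 1 stage with a chi-square per gene under 1.5 (genes with 20 or more counts between them) were summed, as was done for replicates A and B of 72h AEL. SD at 72h AEL is over replicate C and the mean of A and B. Labels call the libraries biological replicates, each a pool of discs. Counts were scaled by TMM. Genes at or under a threshold chosen as in HTSFilter (the highest mean Jaccard index between replicates over 100 thresholds from 1 to 200, loess span 0.3) in every sample were left out. Each pair of stages was fitted on its own by the two-sided quasi-likelihood test of edgeR, with Benjamini-Hochberg adjustment over all genes tested and a threshold of 0.05, and the SE was obtained from the F statistic, as the size of the log2 fold change over the root of F. The detection floor is 3 counts, which covers counting error only. Log2 CPM for correlations used a prior count of 2. The fits were tested on simulated data with the same dispersion for every gene, no length trends, and changes set only in genes with many counts. That test does not bear on single calls in these libraries.

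Alternatives were DESeq2, DESeq2 size factors, library size, no filter, filterByExpr, all stages in 1 fit, an offset for the trend with coding length, 72h AEL replicates A and B apart, the replicate letter as a block, and each library left out. Without 72h AEL replicate C the summed A and B are the only late L2 sample. Deviations from the stage means of libraries with the same letter correlated at 0.17, 0.12 and 0.11 (A, B and C) between 120h and 96h AEL. Each is over 0.1, so a block by letter was thought usable for these samples, from the data and not from the labels. Libraries of unlike letters were not compared, so these values do not establish a pairing. Replicate B alone reached 0.19 between 96h and 72h AEL and 0.18 between 120h and 72h AEL.

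The 5 genes and the gene lists were chosen with earlier results of these data known. Named genes are the 5, list genes that passed a test, and the 3 genes most correlated with each of the 5. Others were chosen after their values were seen. These are *Hr3*, the values of *EcR*, *Hr4*, *tai*, *ImpL1* and *Ldh* where they did not pass, and the values of single tissue marker genes. Symbols came from the BDGP6 annotation, which named 13406 of 13676 genes and is another build than the one counted on, so no coordinates or sequences are given. *br*, *InR*, *zip* and 3 tissue marker genes were not analysed here.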

Additional observations from a re-analysis of the deposited data

How the results depend on the processing

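Of the alternative fold changes of the 5 genes, 207 kept their direction and their side of the threshold, 7 lost a call, 5 gained one and 1 changed sign. At 120h against 96h AEL, the 5 calls held throughout. The sign change was *ImpE1* at 96h against 72h AEL, which had -0.29 with the length trend removed (adjusted p = 0.512 by edgeR). With each library left out in turn, 1 to 3 of the 5 genes were called at 96h against 72h AEL, 1 without 96h AEL replicate A or B, and the log2 fold change ran over 1.16 to 1.63 for *ImpE3* and -1.58 to -1.12 for *ImpL2*. With library size only, *ImpL2* (-0.96, edgeR adjusted p = 0.0556) lost and *Sb* (1.85, 0.0438) gained a call there. The calls over all genes moved more: leaving out 1 library gave 645 (without 96h AEL replicate B) to 4001 at 96h against 72h AEL (3747 with all), 539 (without 96h AEL replicate B) to 1336 at 120h against 96h AEL (1205 with all), and 2563 (without 120h AEL replicate C) to 5102 at 120h against 72h AEL (4828 with all). At 96h against 72h AEL, 5729 genes were called with 72h AEL replicates A and B apart, and DESeq2 called 1873 at 120h against 96h AEL. With the replicate block, 880 genes and the same 5 of 5 passed at 120h against 96h AEL. Besides *Eip78C* and *Sdr* no call named in the report changed there. Between 72h AEL and later stages the correlations by letter had mixed signs (-0.43 to 0.19 with 96h AEL and -0.16 to 0.18 with 120h AEL). The block, with A and B apart, moved the genes called to 3384 at 96h against 72h AEL and 5709 at 120h against 72h AEL, where *ImpL2* passed (0.63, edgeR adjusted p = 0.0449), as it did with library size only (1.07), the length trend removed (0.71) and A and B apart (0.62). *ImpL1* at 120h against 96h AEL had a log2 fold change of 0.15 (edgeR adjusted p = 0.913), -0.31 with the block and -0.0096 to 0.59 with a library left out, and was not tested without 120h AEL replicate B. For the list genes, 685 alternative values kept their direction and side of the threshold, 79 lost a call and 17 gained one. Levels of the 5 genes moved past their SD in 2 of 75 alternatives, both with library size only at 120h AEL (184 CPM for *ImpE1* and 238 CPM for *ImpL2*).

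With 2 independent samples at 72h AEL, a missed threshold in a comparison with that stage does not show that levels were alike. The causes of the changes between settings were not tested.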
